A study of Mus musculus with 12 samples.

Results

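FGFR1 HiChIP of neuronal committed cells (NCCs) was compared with FGFR1 HiChIP of embryonic stem cells (ESCs), and each change was set beside the change in Hi-C of the same cells. These are 4 of the 12 samples of the series, which were deposited as 2 of its 6 merged libraries, and they were chosen by antibody and cell type alone, not by any measured value. The ESCs were the E14Tg2A mouse line, grown without feeder cells and with 100 U/mL leukemia inhibitory factor (LIF). The NCCs were the same line after 48 h with 1 μM retinoic acid and no LIF. The files hold no expression data, so the identity of the NCCs rests on their labels, and the culture was not sorted. Because the authors merged the 2 biological replicates of each cell type and assay, each cell type has 1 FGFR1 library, the spread between replicates is unknown, and no test of the cell types could be run. All intervals below cover counting error only, and an interval that leaves out 0 says that 2 merged libraries differ, not that the cell types do.

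FGFR1 is a receptor tyrosine kinase for fibroblast growth factors at the cell surface, and a form of it also enters the nucleus, where it works with the coactivator CREB-binding protein and with nuclear receptors at the promoters of developmental genes. Retinoic acid binds the retinoic acid receptors, which pair with retinoid X receptors on DNA, and it drives cultured ESCs out of pluripotency and toward neural fates. The Hox genes are its classical targets and are switched on in the order in which they stand along their clusters. Hi-C ligates DNA ends that lie close together in fixed nuclei, and HiChIP adds an immunoprecipitation, so that ligated pairs with the chosen protein nearby are enriched. An FGFR1 HiChIP read pair therefore depends both on the contact and on FGFR1 at one of its ends, and dividing by Hi-C is meant to leave the FGFR1 side of the change.

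On autosomes, FGFR1 HiChIP held 2645713 read pairs in ESCs and 3177422 in NCCs, against 20643821 and 21142644 in Hi-C and 1210721 and 1049415 in CTCF HiChIP, which served as the other antibody. Each read pair joined 2 anchors, or lay inside 1 anchor, where an anchor is a stretch of restriction fragments that the authors' software called separately in each library. There were 200749 FGFR1 anchors in ESCs and 223499 in NCCs, covering 570 Mb and 671 Mb of the mm10 genome. Their median lengths were 2330 bp and 2413 bp. Values are written as log2 of NCC over ESC after scaling to the same number of autosomal read pairs. The "difference" is the log2 change in FGFR1 HiChIP minus the log2 change in Hi-C.

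The FGFR1 library of NCCs held fewer read pairs inside 1 anchor and more at long range than that of ESCs. Hi-C changed by nearly the same amount at 50 Mb or more and between chromosomes, but less in most other classes. Pairs inside 1 anchor went from 20.02% to 17.4% of FGFR1 read pairs, and inter-chromosomal pairs from 10.8% to 12.4%. The share of pairs 50 Mb or more apart had the largest log2 change of the 12 classes, from 1.12% to 1.79%, or 0.67 on the log2 scale. Hi-C had log2 changes of 0.63 at 50 Mb or more and 0.20 between chromosomes, where FGFR1 HiChIP also had 0.20. The inter-chromosomal difference was 0.00, with a 95% counting interval from -0.00 to 0.01.

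FGFR1 HiChIP moved apart from Hi-C most inside 1 anchor and between 500 kb and 50 Mb. Inside 1 anchor the difference was -0.13 (95% counting interval -0.134 to -0.123), below 0 on 19 of 19 autosomes, and at 50 Mb or more it was 0.04 (0.02 to 0.06). Pairs 1 to 2 Mb apart rose from 3.20% to 3.58% of FGFR1 read pairs, while Hi-C had 2.89% and 2.87%. The difference of 0.17 had a 95% counting interval from 0.16 to 0.18 and was above 0 on 19 of 19 autosomes. It was 0.11 at 500 kb to 1 Mb, 0.14 at 2 to 5 Mb, 0.09 at 5 to 10 Mb and at 10 to 20 Mb, and 0.08 at 20 to 50 Mb. Over all pairs 1 Mb or more apart on the same chromosome, the difference was 0.10 (0.096 to 0.109). Inside 1 anchor and from 500 kb up, CTCF HiChIP changed more than FGFR1 HiChIP in the same direction, with 0.23 at 1 to 2 Mb and -0.48 inside 1 anchor. At shorter distances the directions were opposite. CTCF HiChIP had 0.085 under 20 kb, 0.088 at 20 to 100 kb and 0.076 at 100 to 500 kb, where FGFR1 HiChIP had -0.016, -0.030 and -0.038. Autosomes share their libraries and are not replicates.

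These differences were smaller when the same DNA was counted in all 4 libraries. Segments that lay inside an anchor of every FGFR1 and Hi-C library were taken as shared segments, and read pairs were weighted by the share of each of their anchors that lay on them. Positions inside an anchor are not in the files, so ends were spread evenly over it. On shared segments the difference at 1 to 2 Mb was 0.02 (-0.02 to 0.06), and over all pairs 1 Mb or more apart it was 0.00 (-0.01 to 0.02), above 0 on 8 of 19 autosomes. The 12 classes had differences from -0.02 to 0.02. What was common to both assays remained: at 50 Mb or more, FGFR1 HiChIP changed by 0.63 and Hi-C by 0.62, and between chromosomes by 0.20 and 0.19. Shared segments were set up after the values on all anchors had been seen.

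**Figure D1:**
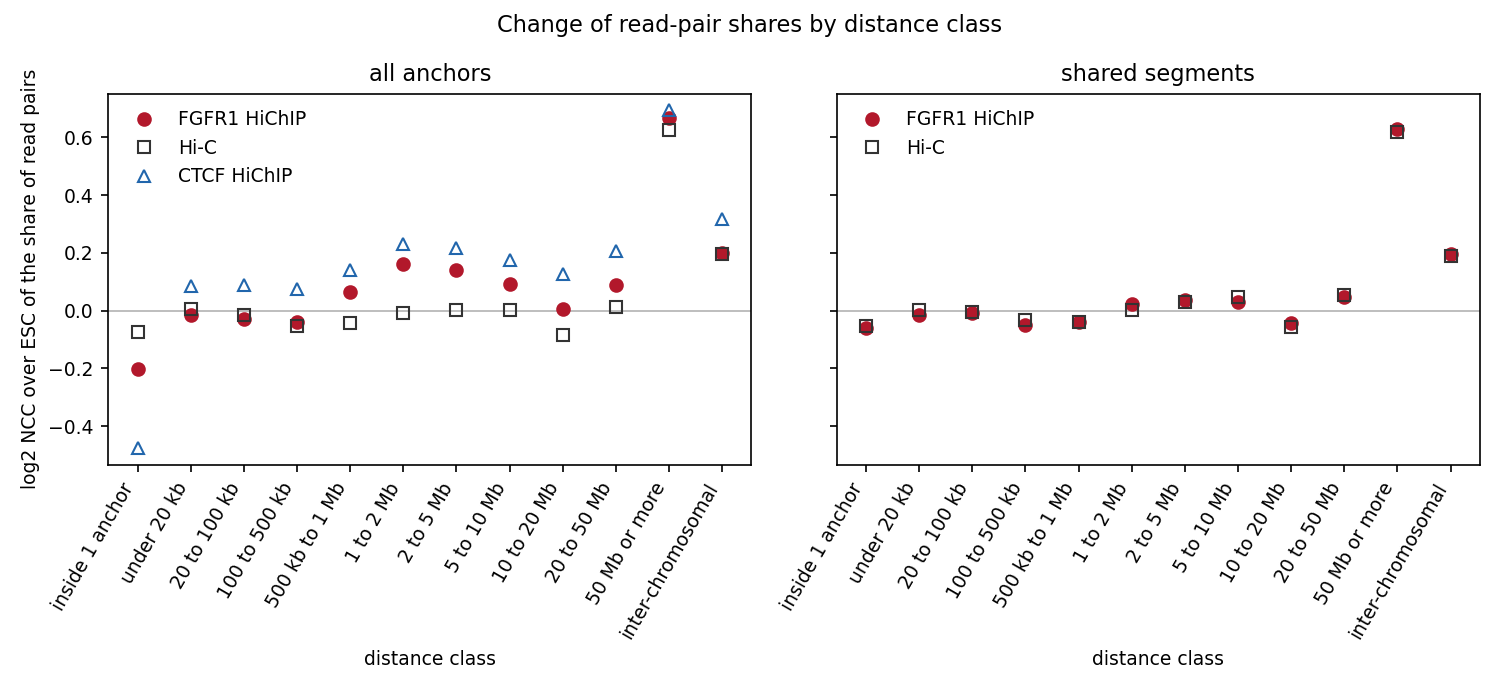
Log2 of the NCC share over the ESC share of read pairs (y axis) in 12 distance classes (x axis), on all anchors at left and on shared segments at right. Each symbol is 1 pair of merged libraries, with no error bar because counting intervals are about as small as the symbols. At left FGFR1 HiChIP lies above Hi-C from 500 kb to 50 Mb, and at right the symbols of both assays lie within 0.02 of each other.

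The loci were measured by the number of read-pair ends per bin. In 100 kb bins, a bin was tested with at least 100 FGFR1 ends over both cell types together, and called when the difference passed 1.5-fold and 3.5 counting standard errors. On all anchors, 5086 of 22582 bins were called higher in NCCs (22.5% of bins tested) and 4025 lower (17.8%). In 10 kb bins the minimum was 30 FGFR1 ends and the threshold 2-fold. Bins of 10 kb over 10 times the median Hi-C ends were left out as likely collapsed repeats. Of 141540 such bins tested, 18377 were called higher (13%) and 19768 lower (14%). The SD of the difference over 100 kb bins was 1.92, against a median counting error of 0.175.

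Anchors lay in different places in the 4 libraries. The FGFR1 anchors of ESCs and NCCs had 325 Mb in common, which is 57.0% of the ESC cover and 48.4% of the NCC cover, whereas the Hi-C anchors of both cell types had 674 Mb in common, 73.3% of the ESC cover and 73.4% of the NCC cover. Of the called 10 kb bins, 15326 (40.2%) had no end placed in them in at least 1 of the 4 libraries, against 47215 (33.4%) of all tested 10 kb bins. The 10 loci per direction and bin size with the 95% counting bound farthest from 0, 40 in all, each had a library at 0, so none has a fold. As an example, the 10 kb bin chr11:101460001-101470000, which overlaps Vat1 and Rnd2, had 0 FGFR1 ends in ESCs and 135 in NCCs, but 1027 Hi-C ends in ESCs and 0 in NCCs. Each end was placed by the midpoint of its anchor, so an anchor centred in the next bin can still cover a bin at 0. Anchors of all 4 libraries did reach this bin. Counting its ends on shared segments, wherever the partner lay, gave a difference of 1.01 (counting SE 0.24).

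Shared segments, 229 Mb in 103322 pieces, gave far fewer calls. They held 25.8% of FGFR1 read pairs in ESCs and 19.9% in NCCs by weight. Of 9698 bins of 100 kb, 51 were called higher (0.526%) and 64 lower (0.66%). Of 30828 bins of 10 kb, 284 were called higher (0.921%) and 340 lower (1.1%). The SD of the difference over 100 kb bins fell to 0.325, with a median counting error of 0.235. After each bin's difference was divided by its own counting error, the SD was 1.38, compared with 4.78 on all anchors, where counting error alone would give 1. Of the 100 kb bins called higher on all anchors, 720 could be measured on shared segments, 385 of them had a difference above 0 and 2 were called again. Of those called lower, 1808 could be measured, 1011 had a difference below 0 and 18 were called again.

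Even a shared segment lies in anchors of different length in each library. Segments were therefore also restricted to places where the part common to the 4 anchors made up at least 80% of each anchor, which left 24.7 Mb. There, 2 of 1608 bins of 100 kb were called higher (0.124%) and 3 lower (0.187%), and 3 of 7274 bins of 10 kb were called in each direction (0.0412% each). The SD of differences divided by their own counting error was 1.21 in 100 kb bins and 1.08 in 10 kb bins. The SD of the difference itself in 100 kb bins, 0.337, was no smaller than on shared segments, while the median counting error was larger, at 0.293. This restriction also removed most of the genome, and a locus without such anchors was not measured by it.

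**Figure D2:**
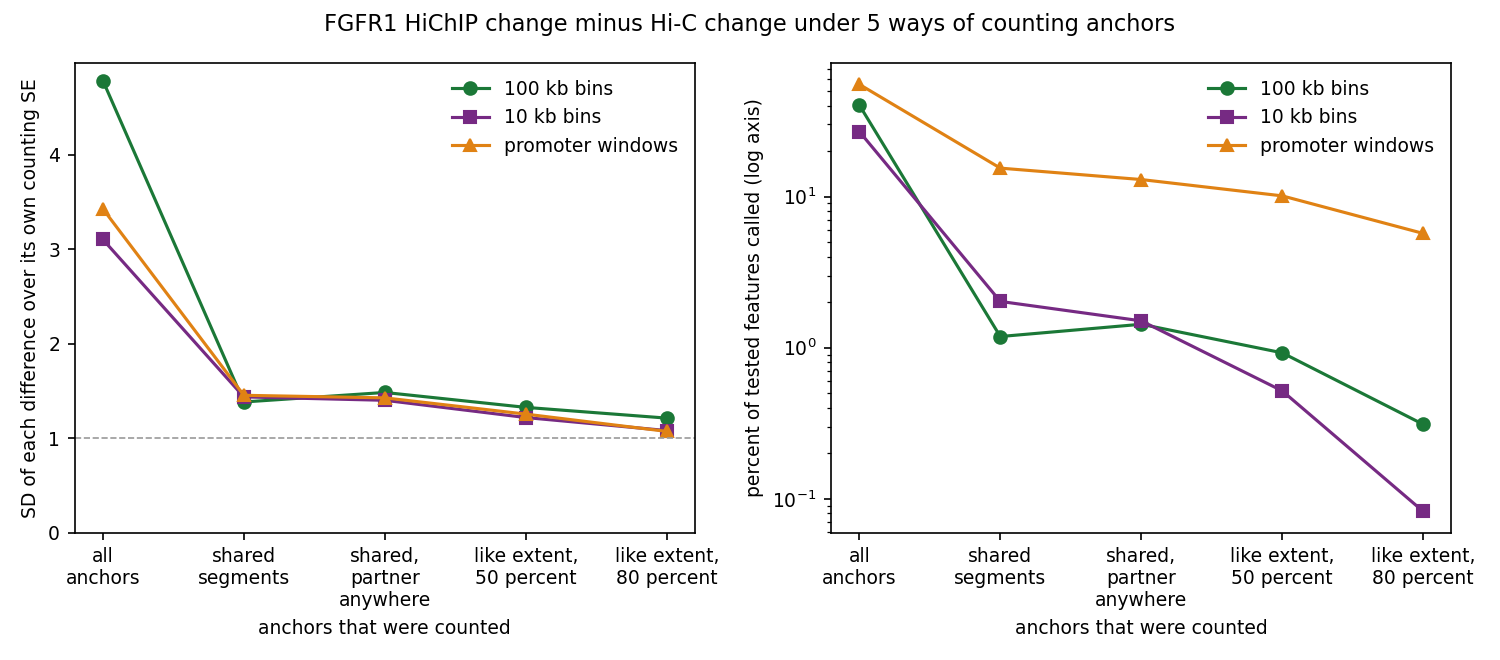
Left, SD over bins or windows of each difference divided by its own counting error (y axis) under 5 ways of counting anchors (x axis), with a dashed line at 1, the value that counting error alone would give. Right, percent of tested features called in either direction, on a log axis. Each point is 1 set of features in the same merged libraries. For 100 kb bins it is 4.78 on all anchors and 1.21 on anchors at least 80% in common.

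The tilt of FGFR1 contacts by base composition was also smaller on shared segments, though fewer bins of low GC content could be measured there. On all anchors, the median difference of 100 kb bins went from 0.71 in the fifth with the lowest GC content (33.5% to 38.4%) to -0.27 in the fifth with the highest (45.5% to 58.9%). Bins with no protein-coding start had a median of 0.15 and bins with 5 or more had -0.20. On shared segments the 5 GC classes had medians of 0.04, 0.02, -0.02, -0.03 and -0.06. Bins with no start and with 5 or more starts had -0.03 and 0.02. The GC classes were set anew over the bins measured there, the lowest from 35.5% to 42.1% and the highest from 47.9% to 55.7%. The medians of the 2 measures are thus not of the same bins. Spearman's rho between GC content and the difference was -0.30 over 22582 bins on all anchors and -0.12 over 9698 bins on shared segments. Bins share their libraries, so these are descriptions only. On segments shared by all 6 libraries, in 2900 bins, the changes of FGFR1 and CTCF HiChIP had a rho of 0.09.

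**Figure D3:**
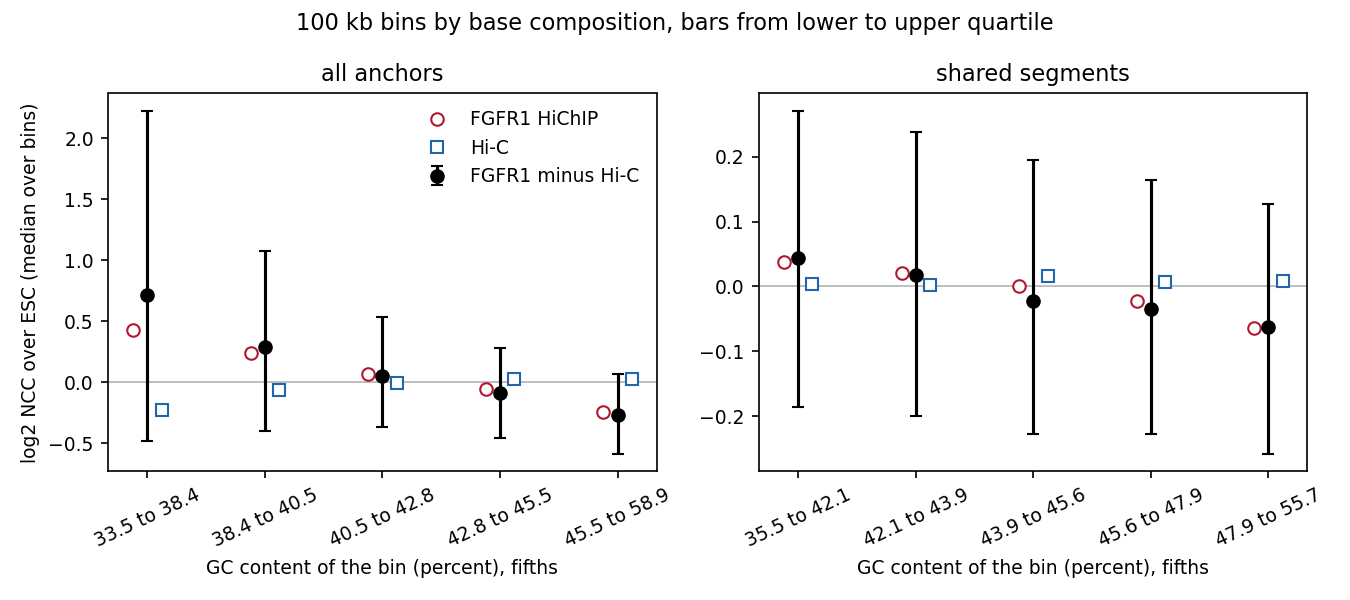
Median log2 change of 100 kb bins (y axis, NCC over ESC) by 5 equal classes of GC content (x axis, percent), on all anchors at left and on shared segments at right, with different y scales. Filled circles are FGFR1 HiChIP minus Hi-C with bars from the lower to the upper quartile of bins, and open symbols are each assay alone. The GC classes were set separately in each panel. The medians run from 0.71 to -0.27 at left and from 0.04 to -0.06 at right.

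Short and long read pairs were compared within the same libraries. Bins called on pairs under 20 kb apart or inside 1 anchor were measured again on the remaining pairs, which are other read pairs weighted by the same anchors, so that an anchor of unequal length in the libraries moves both alike. Of 147 bins of 10 kb called higher on short pairs on shared segments, 131 had a difference above 0 on long pairs, and of 140 called lower, 128 were below 0. The medians were 2.39 and -2.49 on the short pairs that gave the calls and 0.67 and -0.70 on long pairs. Over all 22459 bins with both values, 49.3% were above 0 on long pairs. On all anchors 5046 of 5065 bins called higher were above 0 on long pairs, where an anchor that is missing from a library is missing for short and long pairs alike.

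The 10 kb loci with the strongest rise on shared segments were led by a bin in Patj, a scaffold of the tight junction and cell polarity complex. It had 8.24 FGFR1 ends in ESCs and 35.2 in NCCs, with 36.0 and 19.9 Hi-C ends, a 7.61-fold difference. Lta4h, the enzyme that makes leukotriene B4, had 8.23 and 30.8 FGFR1 ends and 69.6 and 34.3 Hi-C ends, a 7.49-fold difference. In both bins FGFR1 ends were higher in NCCs and Hi-C ends lower. St6galnac6, a sialyltransferase, had 12.5 and 22.5 FGFR1 ends and 171 and 50.8 Hi-C ends (6.16-fold), so most of that difference lay in Hi-C. The other bins of the 10 highest overlapped Smim19 and Slc20a2, Pabpc1, Igsf3, Pitpnb and Eif4g2, or overlapped no protein-coding gene. The nearest protein-coding starts of the latter were those of Dynlrb2, 84974 bp away, and Actn1, 49630 bp away. Most of the difference also lay in Hi-C at Pabpc1, at Smim19 and Slc20a2 and in the bin nearest Dynlrb2.

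In the other direction, a bin at Pdc, which binds the beta and gamma subunits of G proteins in photoreceptors, fell from 38.3 to 10.1 FGFR1 ends while Hi-C ends went from 26.5 to 67.1, an 8.80-fold difference. Rad52, a DNA repair protein of homologous recombination, went from 40.4 to 8.90 FGFR1 ends and from 39.1 to 67.02 Hi-C ends (7.14-fold). The bin at Sumo3, a small ubiquitin-like modifier, and Gm49325 had 56.5 and 10.6 FGFR1 ends against nearly level Hi-C ends of 60.5 and 62.6, so there the fall was in FGFR1 HiChIP. Actn1, which encodes the actin crosslinker alpha-actinin, was the nearest gene in both directions. The bin at its start, chr12:80260001-80270000, was lower by 5.62-fold, and chr12:80310001-80320000, outside the gene, was higher by 4.99-fold. The lower bin had 31.5 and 15.1 FGFR1 ends and 34.1 and 98.2 Hi-C ends, so most of its difference lay in Hi-C. The remaining bins of the 10 lowest overlapped Rgl1, Cachd1 and Nelfa, or had their nearest protein-coding start at Pcbp1 (6321 bp away), Wfdc1 (6365 bp) and Speer3 (91619 bp). All 20 bins were called again when only the counted end, not its partner, had to lie on a shared segment. Of all 10 kb bins called on shared segments, 112 of 284 higher and 160 of 340 lower were called again. The 20 were picked as the most extreme, and the same read pairs enter both counts. Of the 20, only Lta4h (2.55, counting SE 0.42) and Pdc (-1.64, counting SE 0.39) lay in anchors at least 50% in common and had enough ends. None did at 80%. On all anchors the bins at Pitpnb (-1.59) and chr12:80310001-80320000 (-0.75) had the opposite sign. So did those at Rad52 (0.60), Rgl1 (1.04), Cachd1 (0.15) and Nelfa (0.94), and those nearest Pcbp1 (6.62) and Speer3 (0.45). The rest of the 20 kept their sign.

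In 100 kb bins, the highest 10 were led by chr3:94400001-94500000, with Tdrkh, a piRNA pathway protein, and the endosomal protein Snx27 among its 7 genes. It had 58.0 and 51.7 FGFR1 ends and 281 and 99.6 Hi-C ends, a 2.61-fold difference that lay in Hi-C. The bin by Irx6, a homeobox gene of the Iroquois family, had 44.6 and 69.5 FGFR1 ends and a 2.31-fold difference. The bin at chr17:39800001-39900000, whose nearest protein-coding start, that of Esp38, is 50520 bp away, had a 1.52-fold difference. It held 4159 FGFR1 ends in ESCs and 5279 in NCCs and 25722 and 22286 Hi-C ends. The medians over the bins tested were 98.5 and 91.9 FGFR1 ends. The limit on Hi-C ends used for 10 kb bins was not applied to 100 kb bins, and whether this bin holds collapsed repeats was not tested.

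Among falling 100 kb bins, the one with Lrrk1, a kinase of the endosomal pathway, went from 105 to 34.0 FGFR1 ends, with 121 and 150 Hi-C ends (3.67-fold). The bin of Epop, Mllt6, Cisd3 and Pcgf2 went from 224 to 124 FGFR1 ends, with 624 and 755 Hi-C ends (2.11-fold). Epop and Pcgf2 belong to Polycomb complexes, which silence developmental genes. The bin near Tbx3, a T-box factor of the pluripotency network, went from 228 to 167 FGFR1 ends (1.88-fold). The bin with Dgcr8, the partner of Drosha in microRNA processing, went from 157 to 101 (2.01-fold). With the partner end allowed anywhere, 4 of the 10 rising and 5 of the 10 falling bins were called again, and 10 of 51 and 23 of 64 over all called 100 kb bins. On anchors at least 50% in common, the bin near Tbx3 had a difference of -0.15 (counting SE 0.29).

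Promoters were measured in windows of 10 kb on each side of the start of each of 20780 protein-coding genes. A window was tested with at least 30 FGFR1 ends and called when it passed 1.5-fold and its 95% counting interval left out 0, a looser rule than for bins. On all anchors, 4643 of 18755 windows were called higher (24.8%) and 5725 lower (30.5%). On shared segments, 948 of 10876 were called higher (8.72%) and 730 lower (6.71%), with a median difference of 0.03. On anchors at least 80% in common, 53 of 2192 were called higher (2.42%) and 72 lower (3.28%). The windows with the bounds farthest from 0 on shared segments included those of Pdc, Lta4h, Actn1 (-2.50), Sumo3, Gm49325, Rad52, Pabpc1, Smim19 and Slc20a2. They added Srd5a3 (2.81), Kcnk10 (2.34), Ets2 (2.01), Timm8a2, Ak1, Timeless, Mip and Fbxo30 on the higher side and Fdft1 (-2.35), Dennd6b, Ttc34, Serpinc1, Smim1, Skiv2l and Nelfe on the lower side. Several were called in the opposite direction on all anchors. Srd5a3 (-2.34), Kcnk10 (-0.82), Timeless (-1.61) and Mip (-1.91) were called lower there, and Actn1 (1.09) and Rad52 (0.67) higher. Timm8a2, Ak1, Dennd6b, Serpinc1, Smim1, Skiv2l and Nelfe were called in the same direction there, and the rest were not called. Neighbouring windows share ends, as those of Skiv2l and Nelfe do.

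Of the 948 windows called higher on shared segments, 438 could be measured on anchors at least 50% in common, where 409 stayed above 0 and 151 were called, with a median of 0.53 against 0.90 for the same windows on shared segments. Of the 730 called lower, 283 could be measured, 269 stayed below 0 and 123 were called, with medians of -0.61 and -0.91. The sizes given below on shared segments were thus larger than those on anchors of like extent, for windows that could be measured both ways. Since the same read pairs enter both, the shared sign is not independent support.

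At the Hox genes, the windows of the HoxA cluster from Hoxa2 to Hoxa7 were higher in NCCs, and those from Hoxa9 to Hoxa13 were not. Of 40 windows in the list of Hox genes, Evx1 and Evx2, 37 could be measured, 7 were called higher and 0 lower (8.72% higher and 6.71% lower over all windows), and the median difference was 0.11 (0.03 over all genes). Of the 7, 6 were in HoxA, out of 10 Hox windows listed there, and the other was Hoxc9. HoxB had 0 called of 10, HoxC 1 of 9 and HoxD 0 of 6 measured. The difference at Hoxc9 was 0.72, but -0.10 without pairs inside 1 anchor and 0.09 on pairs 20 kb or more apart. Hoxb2, the member with the most FGFR1 ends, had 101 and 118 (0.40). Over the whole list the median FGFR1 change alone was -0.16 and the median Hi-C change -0.20. Without dividing by Hi-C, 5 windows of the list were called higher and 2 lower, of which HoxA held 5 and 1. Neighbouring windows from Hoxa2 to Hoxa7 overlap, and those of Hoxa5 and Hoxa6 hold the same ends, so the 6 are not separate observations.

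Hoxa4, which helps set the identity of the neck region, had the largest HoxA difference, with 55.3 FGFR1 ends in ESCs and 95.7 in NCCs, while Hi-C had 273 and 236. The difference was 1.05 (0.50 to 1.60). Hoxa2, a patterning gene of the hindbrain and its neural crest, had 69.2 and 83.9 FGFR1 ends and 253 and 199 Hi-C ends (0.68). Hoxa3, which is needed for the thymus and parathyroid, went from 46.2 to 66.6 FGFR1 ends and had 197 and 166 Hi-C ends (0.83). Hoxa5 and Hoxa6 had 22.1 and 35.2 FGFR1 ends (0.92), and Hoxa7 had 30.01 and 45.8 (0.84). In each of these windows FGFR1 ends were higher in NCCs, by 0.39 to 0.89, and Hi-C lay between -0.29 and -0.13.

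The later genes of the cluster had differences near or below 0, none of them called. Hoxa9 had 69.0 and 64.0 FGFR1 ends and a difference of 0.11 (-0.41 to 0.64). Hoxa10 had 50.6 and 34.6 FGFR1 ends (-0.35), and Hoxa11 had 31.6 and 17.4 (-0.51). Hoxa13, which shapes the digits and the end of the gut, had 52.4 and 28.8 FGFR1 ends and 140 and 118 Hi-C ends, a difference of -0.54 (-1.15 to 0.06).

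Taken as regions that do not overlap, chr6:52159831-52226471 with Hoxa2 to Hoxa7 had 166 and 236 FGFR1 ends, 674 and 543 Hi-C ends and a difference of 0.87 (0.53 to 1.22). The region chr6:52226472-52270880 with Hoxa9 to Hoxa13 had 106 and 69.5 FGFR1 ends, 316 and 279 Hi-C ends and a difference of -0.37 (-0.81 to 0.07). The gap between them was 1.24 (0.68 to 1.80). The border was placed between Hoxa7 and Hoxa9 after the windows had been seen, so the gap is a description of that choice. Short pairs gave 1.06 and -0.26 and long pairs 0.73 and -0.44. These values rest on 18979 bp and 12162 bp of shared segments. With the partner end anywhere, Hoxa3 (0.87), Hoxa4 (0.79), Hoxa5 and Hoxa6 (1.15) and Hoxa7 (0.81) were called, and Hoxa2 had 0.49. On anchors at least 50% in common, Hoxa4 had 0.79 (counting SE 0.29), Hoxa13 had -0.31 (counting SE 0.29), and Hoxa3, Hoxa7 and Hoxa9 shared their anchors and had 0.54 (counting SE 0.38). On all anchors the order broke up, with Hoxa7 at -0.56, Hoxa10 at 1.02 and Hoxa13 at -1.29.

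CTCF HiChIP at these windows was measured in segments shared by all 6 libraries. Its change alone was 0.13 at Hoxa2, 0.37 at Hoxa3, 1.33 at Hoxa5 and Hoxa6 and -0.71 at Hoxa7. It was -0.55 at Hoxa9, -0.44 at Hoxa10, -0.10 at Hoxa11 and -0.90 at Hoxa13. Apart from Hoxa7 and Hoxa9, these signs ran as for FGFR1 HiChIP alone, above 0 in the earlier genes and below 0 in the later ones. FGFR1 HiChIP alone had 0.71 at Hoxa7 and 0.00 at Hoxa9, on the segments shared by 4 libraries. The CTCF values rest on 28.1 to 79.0 CTCF ends per window, and Hoxa4 had 0. With CTCF HiChIP in place of Hi-C as the divisor on all anchors, the median Hox difference was -0.31, against 0.04 with Hi-C.

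**Figure D4:**
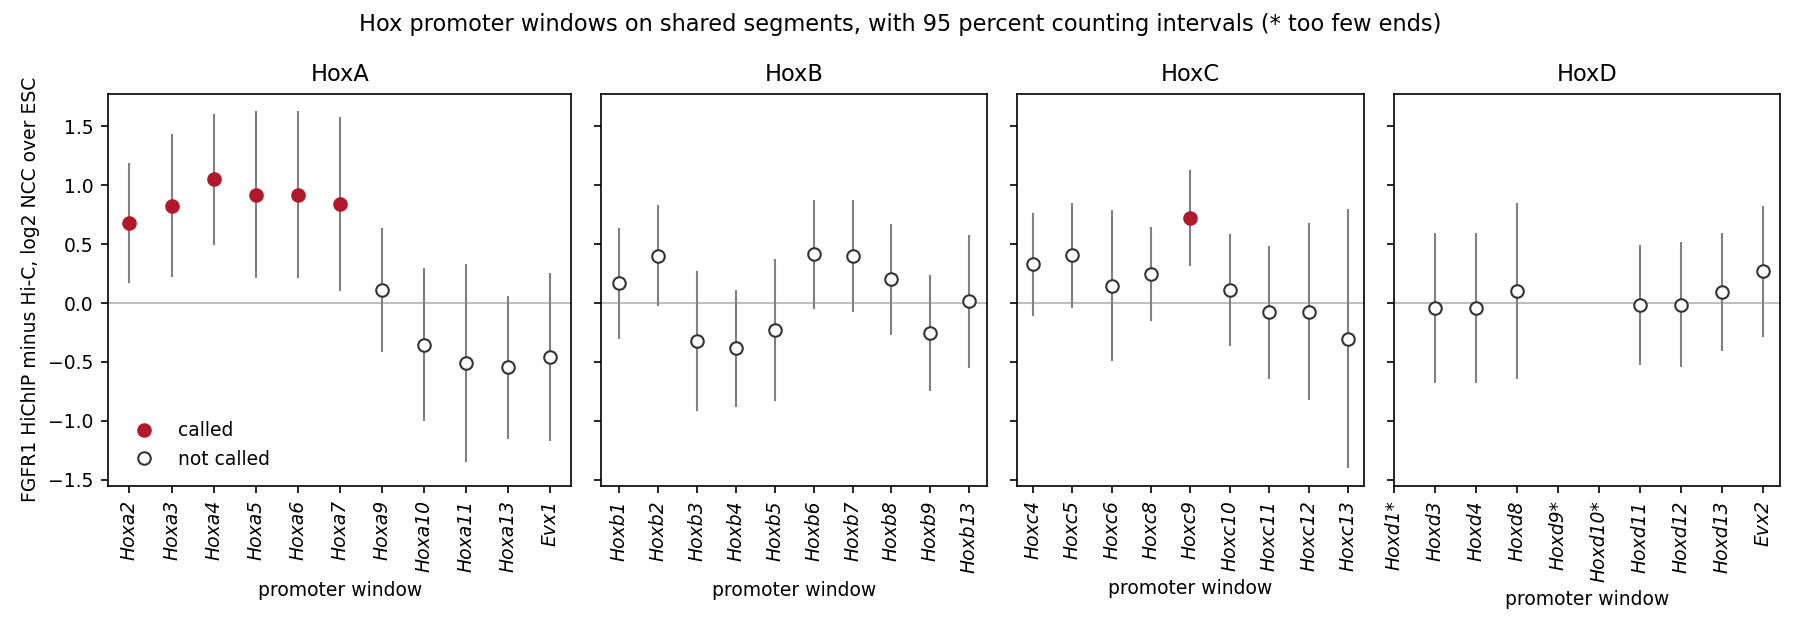
FGFR1 HiChIP minus Hi-C (y axis, log2 NCC over ESC) at the promoter windows of the HoxA to HoxD clusters (x axis, in order of gene number), on shared segments. Circles are windows of 1 pair of merged libraries per assay with 95% counting intervals, filled where called, and a star marks genes with too few ends. Hoxa2 to Hoxa7 lie between 0.68 and 1.05, and Hoxa9 to Hoxa13 between 0.11 and -0.54.

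Promoter sequences were read for Hoxa5 and Hoxa7, inside the stretch of called windows, and for Hoxa13, at its far side, together with Nkx6-2, the window with the largest fall in the neural list described below. They show DNA inside these windows. The Hoxa5, Hoxa13 and Nkx6-2 stretches hold the start on which the window is centred, and the Hoxa7 stretch is that of another start of the gene. Each covers 250 bases before to 50 after a start, from RefSeq on GRCm38.p6, 5′ to 3′ on the minus strand: chr6:52204538-52204837 (Hoxa5), chr6:52218524-52218823 (Hoxa7), chr6:52260831-52261130 (Hoxa13) and chr7:139582748-139583047 (Nkx6-2). Capitals would mark the retinoid receptor core motif AGGTCA or the cAMP response element TGACGTCA, through which CREB acts, on either strand.
Hoxa5: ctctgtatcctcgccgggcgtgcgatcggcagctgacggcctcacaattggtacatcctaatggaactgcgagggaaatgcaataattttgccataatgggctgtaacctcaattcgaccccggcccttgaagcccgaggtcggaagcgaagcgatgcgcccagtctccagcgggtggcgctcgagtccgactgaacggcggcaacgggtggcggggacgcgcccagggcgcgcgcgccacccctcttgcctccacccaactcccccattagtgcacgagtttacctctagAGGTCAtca
Hoxa7: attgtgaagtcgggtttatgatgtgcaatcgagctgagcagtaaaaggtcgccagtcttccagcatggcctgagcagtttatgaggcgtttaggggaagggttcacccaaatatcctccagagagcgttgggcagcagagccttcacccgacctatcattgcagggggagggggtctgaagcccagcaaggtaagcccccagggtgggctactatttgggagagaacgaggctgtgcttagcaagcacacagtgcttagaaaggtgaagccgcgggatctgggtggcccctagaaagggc
Hoxa13: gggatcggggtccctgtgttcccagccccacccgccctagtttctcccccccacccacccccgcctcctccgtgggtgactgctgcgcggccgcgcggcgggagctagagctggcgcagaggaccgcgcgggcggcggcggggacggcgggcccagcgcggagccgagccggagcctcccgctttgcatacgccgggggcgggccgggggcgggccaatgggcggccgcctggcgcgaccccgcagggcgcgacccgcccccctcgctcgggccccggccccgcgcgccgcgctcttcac
Nkx6-2: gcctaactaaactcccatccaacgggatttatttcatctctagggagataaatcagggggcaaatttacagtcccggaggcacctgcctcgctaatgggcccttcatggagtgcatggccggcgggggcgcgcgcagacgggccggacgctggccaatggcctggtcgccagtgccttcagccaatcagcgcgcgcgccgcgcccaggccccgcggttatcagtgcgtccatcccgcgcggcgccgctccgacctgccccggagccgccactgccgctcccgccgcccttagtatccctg

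Hoxa5 holds 1 AGGTCA near its 3′ end, and neither motif stands in the other 3 stretches. The Hoxa13 promoter is the richest in GC, at 81%, against 61.7% for Hoxa5 and 55.7% for Hoxa7. Of 31 called members of the lists, 19 matched a RefSeq promoter, 6 of these held AGGTCA in at least 1 of their promoters and 0 TGACGTCA. That is a count of genes, some with more than 1 promoter, so it cannot be set against the shares of promoters that follow. AGGTCA stood in 16.3% of all 31396 promoters, in 11.2% of promoters of windows called higher and in 12.8% of those called lower. TGACGTCA stood in 1.83% of all promoters, 4.204% of those called higher and 2.11% of those called lower. These shares are descriptions, and promoters of measured windows differ from all promoters, with 13.8% and 2.85%.

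Of 35 listed pluripotency genes, 24 were measured on shared segments, 8 were called higher and 0 lower (8.72% higher and 6.71% lower over all windows), with a median difference of 0.45. On all anchors the list had 9 higher and 8 lower of 34 measured, with a median of -0.02. The median FGFR1 change alone was 0.08 and the median Hi-C change -0.37, so most of the difference lay in Hi-C. Without dividing by Hi-C, 1 was called higher and 2 lower.

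Jarid2, a subunit of Polycomb repressive complex 2, had 24.3 FGFR1 ends in ESCs and 35.4 in NCCs, with 150 and 74.0 Hi-C ends, and the largest difference in the list (1.60). Dppa3, a maternal factor also known as Stella, had 21.4 and 30.6 FGFR1 ends and 103 and 58.6 Hi-C ends (1.37). Myc, the growth-promoting transcription factor, went from 20.5 to 34.4 FGFR1 ends (1.23). In these 3 windows FGFR1 ends were higher and Hi-C ends lower in NCCs.

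Pou5f1, the core pluripotency factor Oct4, had 14.7 and 17.0 FGFR1 ends and 61.3 and 40.6 Hi-C ends, a difference of 0.85 (0.11 to 1.58). Lin28a, which blocks let-7 maturation, had 55.5 and 76.3 FGFR1 ends (0.96), and Tbx3 had 63.4 and 86.5 (0.76). Lin28a had 0.29 on pairs 20 kb or more apart and 0.29 on anchors at least 50% in common. Tbx3 had 0.24 without pairs inside 1 anchor and 0.14 on pairs 20 kb or more apart, but 0.76 on anchors at least 50% in common. Dppa5a, the member with the most FGFR1 ends, had a level 88.7 and 92.3 FGFR1 ends with Hi-C ends of 264 and 160 (0.84). Tdgf1, a Nodal coreceptor, fell from 96.1 to 70.8 FGFR1 ends and from 285 to 114 Hi-C ends, so its difference of 0.93 had the opposite sign from its FGFR1 change of -0.33. With the partner end anywhere, 6 of 30 measured members were called higher and 2 lower, with a median of 0.39. On anchors at least 50% in common, 0 of 11 were called, with a median of 0.52. Nanog (-0.11) and Sox2 (-0.04), other core factors, were not called. The window of Tbx3 and the 100 kb bin near it had opposite signs and do not overlap.

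Of 45 genes of neural commitment, 30 were measured, 4 were called higher (13.3%) and 2 lower (6.67%), shares near those of all windows (8.72% and 6.71%), with a median of 0.01. Msx1, a homeobox gene of the dorsal neural tube, went from 33.3 to 55.2 FGFR1 ends with level Hi-C ends of 148 and 149 (0.77). Ncam1, the neural cell adhesion molecule, went from 46.0 to 62.3 (0.65), Zic2, a zinc finger factor of the neural plate, from 67.6 to 74.1 (0.67), and Dll1, a Notch ligand, from 39.6 to 46.4 (0.63). None of these 4 was called with the partner end anywhere. Nkx6-2, a homeobox factor of ventral progenitors and oligodendrocytes, went from 68.0 to 28.2 FGFR1 ends and from 152 to 203 Hi-C ends, a difference of -1.61 (-2.22 to -1.01). It was called again with the partner end anywhere (-1.08), had -0.85 (counting SE 0.42) on anchors at least 50% in common, and lay below 0 on short (-2.14) and long pairs (-1.09). Lhx5, a LIM homeobox factor of the forebrain, went from 51.8 to 33.2 FGFR1 ends (-0.86). Nr2f2, the nuclear receptor with the most FGFR1 ends in the list, had 87.2 and 85.5 (0.39), and Pax6 (0.60) and Sox1 (-0.24) were not called.

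Of 24 retinoid genes, 16 were measured, 2 were called higher (12.5%) and 1 lower (6.25%), shares near those of all windows (8.72% and 6.71%). The called windows were those of the retinoid X receptors, which pair with the retinoic acid receptors. Rxrb had 27.6 and 38.7 FGFR1 ends and 225 and 131 Hi-C ends, a difference of 1.31 (0.53 to 2.09). Rxrg went from 12.5 to 25.8 FGFR1 ends (1.49), and Rxra from 64.1 to 48.4 with Hi-C ends of 217 and 289 (-0.76). With the partner end anywhere, Rxrb stayed called (0.80), while Rxrg had 0.43 and Rxra -0.53. Rarg, the retinoic acid receptor with the most FGFR1 ends of the list, had 158 and 176, and its difference of 0.47 (0.12 to 0.83) was under 1.5-fold. Rara had 0.20. Rarb and Cyp26a1, a receptor and the retinoic acid hydroxylase that retinoic acid induces, did not have enough ends on shared segments. On all anchors Rarb had 0 FGFR1 ends in ESCs and 15 in NCCs, with 183 and 0 Hi-C ends, so 1 library of each assay had no anchor centred in its window.

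Of 20 genes of FGF signalling, 12 were measured, 1 was called higher and 1 lower (8.33% each, near the 8.72% and 6.71% of all windows), with a median of 0.33. The window of Fgfr1 itself had 66.8 and 75.4 FGFR1 ends and 315 and 183 Hi-C ends. Its difference of 1.01 (0.53 to 1.48) lay mostly in Hi-C, stayed called with the partner end anywhere (0.72) and was 1.05 (counting SE 0.24) on anchors at least 50% in common. It was 1.91 on short pairs and 0.32 on long pairs. Fgf8, a ligand that patterns the midbrain and limb, went from 22.0 to 12.2 FGFR1 ends with Hi-C ends of 74.6 and 72.1 (-0.72). With a pseudocount of 5 its difference was -0.55 and it was not called. Frs2, the adaptor of the receptors and the member with the most FGFR1 ends, had 70.4 and 79.2 (0.30).

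Of 11 partners and targets of nuclear FGFR1, 9 were measured, 2 were called higher and 0 lower (8.72% higher and 6.71% lower over all windows), with a median of 0.03. Creb1, the cAMP response factor, had 15.7 and 24.6 FGFR1 ends and 118 and 89.95 Hi-C ends, a difference of 1.07 (0.01 to 2.14), and was called again with the partner end anywhere (0.92). Kpnb1, the importin beta that carries FGFR1 into the nucleus, had 53.4 and 71.7 FGFR1 ends and 341 and 238 Hi-C ends (0.99, and 0.53 with the partner end anywhere). Ep300, a histone acetyltransferase related to CREB-binding protein and the member with the most FGFR1 ends, had 116 and 109 FGFR1 ends and a difference of -0.01. Th and Nr4a1, a tyrosine hydroxylase gene and an orphan nuclear receptor, had -0.05 and -0.30.

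Among 12 genes of architectural proteins, 8 were measured, 0 were called higher and 1 lower (8.72% higher and 6.71% lower over all windows). Ldb1, which joins enhancers and promoters through LIM-domain factors, went from 58.1 to 26.4 FGFR1 ends while Hi-C ends were 110 and 99.9, a difference of -0.93 (-1.51 to -0.35), and CTCF HiChIP changed by -2.09 there. Pds5a, a cohesin regulator with the most FGFR1 ends of the list, had 59.6 and 66.2 (0.25), and Rad21, a cohesin subunit, had -0.02. Markers of endoderm and mesoderm, which retinoic acid can also induce, had 1 call in each direction among 12 measured of 19 (8.33% each, near the 8.72% and 6.71% of all windows). Krt18, a simple epithelial keratin, went from 28.6 to 45.2 FGFR1 ends (0.74), and Lama1, a basement membrane laminin, from 37.6 to 23.5 (-0.78). Tbx6 had the most FGFR1 ends, with 73.1 and 67.8 (-0.12).

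Ribosomal protein genes, which all cells use, had 5 windows called higher and 4 lower of 58 measured, and olfactory receptor genes, which act in the sense of smell, 4 and 3 of 62 measured out of 1127. Their shares higher, 8.62% and 6.45%, were near that of all windows. The shares were 33.3% in the pluripotency list, 18.9% in the Hox list and 60% within HoxA, where windows overlap.

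**Figure D5:**
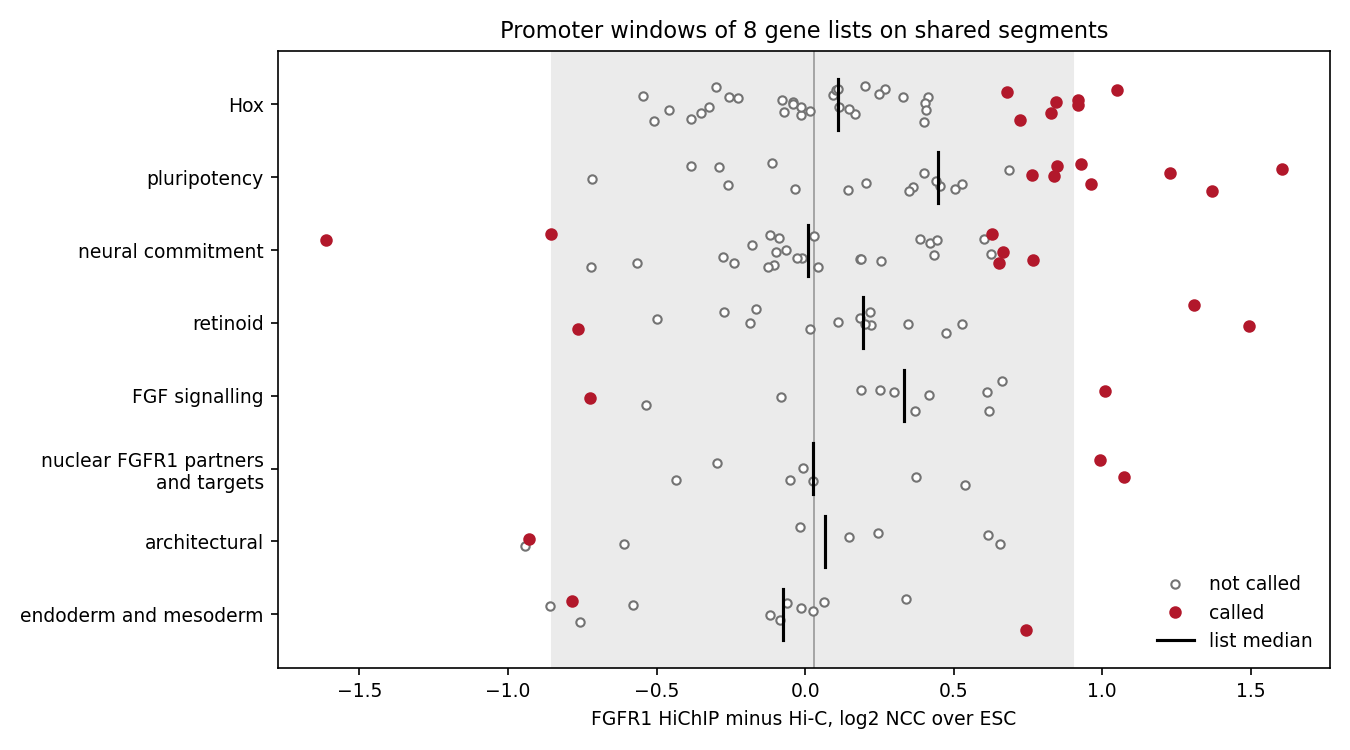
FGFR1 HiChIP minus Hi-C (x axis, log2 NCC over ESC) on shared segments for the measured promoter windows of 8 gene lists (y axis, with vertical jitter only to separate points). Filled circles are called windows, black bars are list medians, the grey line is the median of all windows (0.03) and the grey band runs from their 5th to their 95th percentile (-0.85 to 0.90). The pluripotency list has the highest median, 0.45.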

How the data were processed

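FGFR1 HiChIP, CTCF HiChIP and Hi-C were done by the authors on ESCs and NCCs with 2 biological replicates each. Per the study's methods, reads were processed with HiC-Pro, anchors and interactions were called with hichipper in each sample with default settings, and replicates were merged. Each deposited score is a count, the read pairs joining 2 anchors, with no scaling between cell types, with coordinates on mm10. Software versions are not given in the sources used here.

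Autosomes 1 to 19 were used. On all anchors, a read-pair end was placed in the bin or window that held the midpoint of its anchor. On shared segments it was placed by the overlap of the anchor's shared part with a bin or window. Each library was scaled to the same total and a pseudocount of 0.5 was added. The difference of log2 ratios was given a counting standard error, with Python 3.11.15, numpy 2.4.6 and pandas 2.3.3. The steps were tested on simulated data. Called bins of 1 direction within 50 kb (10 kb bins) or 100 kb (100 kb bins) were joined into a locus. On shared segments, the 10 loci of 10 kb or windows per direction with the 95% counting bound farthest from 0 were named. Of the 10 such loci of 100 kb per direction, only some were named. On all anchors, 1 locus was given as an example. In each gene list, all called members and the one with the most FGFR1 ends were named, except for ribosomal protein and olfactory receptor genes, given only as counts, and a few others for their role, chosen after their values were seen. Some items are not reported here. Members and lists were chosen with earlier results of these data known. Shared segments, ends with the partner anywhere, anchors of like extent and the border within HoxA were added after seeing the data. Alternatives also covered the divisor, the pairs, the minimum of ends, the centring and the pseudocount. Read pairs without molecular identifiers are not independent molecules, so intervals cover counting error only.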

Additional observations from a re-analysis of the deposited data

Results flagged for a closer look

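Chromosome X was outside the comparisons above. The share of FGFR1 HiChIP read pairs with an end on X went from 0.634% in ESCs to 0.826% in NCCs, a log2 change of 0.38, while Hi-C went from 0.491% to 0.403% (-0.29) and CTCF HiChIP had a log2 change of 0.13. FGFR1 anchors on X numbered 2920 in ESCs and 4125 in NCCs, and Hi-C anchors 3265 and 2600. It is listed because it is a signal in data that no comparison used, and the part of the anchors in it was not tested.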

How the results depend on the processing

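No paired analysis was possible because the deposited files merge the 2 replicates of each cell type and assay, and leaving out a replicate could not be run for the same reason. Settings on shared segments, with the partner anywhere and on anchors of like extent were chosen after seeing the data. The cause of each move below was not tested.

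The difference at 1 Mb or more, 0.10, was 0.15 for FGFR1 HiChIP alone, 0.63 with scores of at least 2 and 0.0040 on shared segments, and turned to -0.091 with CTCF HiChIP as the divisor. The Hox median moved from 0.04 to 0.39 with scores of at least 2.

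On all anchors, bins of 100 kb called higher and lower (5086 and 4025) became 2715 and 2541 with CTCF HiChIP as the divisor, 2290 and 2149 with scores of at least 2, 1187 and 1152 on anchors that overlap one of each other library, and 51 and 64 on shared segments. Bins of 10 kb (18377 and 19768) became 8560 and 13107 for FGFR1 HiChIP alone, 5168 and 6838 with CTCF HiChIP, 4909 and 5857 with scores of at least 2, 7037 and 8870 on pairs 20 kb or more apart, 6366 and 6228 on anchors that overlap one of each other library, and 284 and 340 on shared segments, and those called higher became 11535 with a minimum of 60 ends. Promoter windows (4643 and 5725) became 948 and 730 on shared segments.

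On shared segments, leaving out pairs inside 1 anchor gave 31 and 37 bins of 100 kb, 102 and 97 bins of 10 kb, and 578 windows called higher. Pairs 20 kb or more apart gave 8 and 4, 7 and 16, and 257 and 242 windows. A higher minimum of ends gave 36 bins of 100 kb called lower, 93 and 101 bins of 10 kb, and 549 and 425 windows. FGFR1 HiChIP alone gave 149 and 211 bins of 10 kb and 615 windows called higher, and a pseudocount of 5 gave 187 and 156 bins of 10 kb. With the partner anywhere there were 106 and 103 bins of 100 kb and 449 and 551 of 10 kb. On anchors at least 50% in common, 17 bins of 100 kb were called higher, 57 and 77 bins of 10 kb were called, and 322 and 409 windows. At 80% there were 2 and 3, 3 and 3, and 53 and 72. Hoxc9 turned to -0.10 without pairs inside 1 anchor, and Tdgf1 to -0.33 for FGFR1 HiChIP alone.

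Of all recomputed values for whole comparisons, 79 stayed within the limits set for a move, 63 moved and 1 reversed. For single windows these were 148, 15 and 2. The call at Fgf8 was lost with a pseudocount of 5. A tested window held a median of 34.6 FGFR1 ends in ESCs and 31.9 in NCCs on shared segments, which limits the precision of single windows.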
